A study of Mus musculus with 6 samples.

Results

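Alveolar macrophages of the postnatal mouse lung were described in lungs that developed in room air or in high oxygen. The cells were those to which the authors' annotation gives the cell type "Alv Mf", and they numbered 3867 of the 61839 cells with an annotation, or 6.25% of all cells and 32.7% of the cells of the 8 myeloid types. The pups were C57BL/6 mice, pooled over dams with a shared delivery day and distributed over litters of equal size, and breathed 21% O2 (normoxia) or 85% O2 (hyperoxia) from birth until the lungs were taken at postnatal day (P) 3, 7 or 14, while the nursing dams were rotated between both oxygen levels. No allele or transgene was involved, and the 6 groups, each of 6 mice, are labelled by oxygen and age. Sex is not labelled. The study names an unequal distribution of the sexes at P3 and P7 as a limitation, and its part in the results at these ages was not tested. Whole lungs were perfused and dissociated with enzymes without a sort, the cells of every mouse were tagged with a lipid-anchored MULTI-seq sample barcode, and messenger RNA molecules were counted by their unique molecular identifiers (UMIs) in droplets. The cell numbers per group were 845 at P3 in normoxia, 701 at P3 in hyperoxia, 579 and 462 at P7, and 837 and 443 at P14, and 10 to 179 of these cells came from a mouse.

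Alveolar macrophages live on the air side of the alveolus, where they clear surfactant, inhaled particles and dead cells. They are laid down around birth from fetal monocytes under the control of GM-CSF from alveolar type 2 cells, TGF-beta and the transcription factor PPARgamma, and afterwards maintain themselves largely by division in place. Their known features are scavenger receptors, a lipid-handling programme for surfactant and a large lysosomal system. Interstitial macrophages, which lie in the tissue around airways and vessels, and monocytes, which circulate and can give rise to macrophages after injury, are the myeloid types closest to them in this dataset.

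The markers of the type were at their highest or near it in these cells. The unit of level is CPM, a gene's UMIs per 1e6 UMIs of the alveolar macrophages of a mouse. The mean level over 36 mice was 2810 CPM for Chil3, a chitinase-like secreted protein, 996 CPM for Ear2, a secreted ribonuclease, 876 CPM for Marco, a scavenger receptor, and 1292 CPM for Plet1, a membrane protein of alveolar macrophages, and each of these means was the highest among the 34 cell types. For Mrc1, the mannose receptor, the mean was 537 CPM and came after the 738 CPM of interstitial macrophages. Ear1, Siglecf, Pparg, Lpl, Krt79, Atp6v0d2, Itgax, Cidec, Lgals3 and Fabp5 were also highest in this type, whereas Fabp4 and Car4 were higher in endothelial types. The complement gene C1qb, by which the study separated interstitial macrophages, was at 18.1 CPM here and 2628 CPM there. Because the authors clustered the cells on expression, these levels describe the label and do not test it.

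Some cells under the label lacked the marker Plet1, in 1 group in particular cells of high depth. At P14 in hyperoxia, 134 of 443 cells had no UMI of Plet1 although their median depth was 10482 UMIs. In the other 5 groups the cells without Plet1 numbered 25 to 50 and had medians of 923 to 2544 UMIs. Over the 134 cells Marco was at 13.7 CPM and Ear2 at 43.2 CPM, against 1879 and 269 CPM in the 309 cells of that group with a UMI of Plet1. The same cells held Ccl2 at 3757 CPM against 40.0 CPM, C1qb at 188 CPM against 4.19 CPM, S100a6 at 1962 CPM against 204 CPM and the MHC class II gene H2-Ab1 at 436 CPM against 26.4 CPM. They made up 8.25% to 50% of the annotated alveolar macrophages of a hyperoxic P14 mouse. The levels of Chil3 and Mrc1 in the 134 cells are not reported here, and 74.7% of all 443 cells held a UMI of Mrc1. The split by Plet1 was made after the values were seen, and it removes 30.2% of the hyperoxic and 3.94% of the normoxic P14 cells. Calls and p-values among cells with a UMI of Plet1, here and below, therefore describe that subset, and no test is read from them. Of the 101 named genes changed by hyperoxia at P14, 92 were changed the same way among cells with a UMI of Plet1, 6 lost their call and 3 (C3ar1, Ccl7 and Csf1) did not pass the filter on low counts. The fold change of 13 of them moved by more than 1.5 times, and the median shift was 0.20 on the log2 scale.

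The cells came from 6 libraries of 5 pools, with 399 to 806 alveolar macrophages in a library, and of each age a pool held 3 normoxic and 3 hyperoxic mice. The pool spread over 2 libraries held mice of P3 and P7, and the other 4 pools held mice of a single age. A mouse gave 91187 to 2372231 UMIs in these cells. The median cell had 7788 UMIs and 2607 genes. A hyperoxic P7 mouse (replicate 5) had only 10 alveolar macrophages among 125 cells, and only 3 of the 10 had a UMI of Plet1. Only 1 cell barcode was shared between libraries among alveolar macrophages, and 4 of the cells had more than 20% mitochondrial UMIs. The most abundant sample barcode of an alveolar macrophage held 73.6% to 89.9% of its sample barcode counts, as medians of the libraries. For lymphocytes the 9 markers summed to at most 128 CPM in a mouse, and for dendritic cells the 7 markers summed to at most 43.9 CPM. The 12 markers of interstitial macrophages summed to 341 to 561 CPM in normoxia and 533 to 1477 CPM in hyperoxia at P14, and to 194 to 1491 CPM at P3 and P7. Those of monocytes, 10 in number, summed to 311 to 438 CPM in normoxia and 204 to 283 CPM in hyperoxia at P14, without overlap. The 10 markers of alveolar type 2 cells summed to 727 to 4243 CPM, the 5 of red blood cells to 1.17 to 7995 CPM and the 10 of neutrophils to 186 to 3252 CPM. Their part in the results below was not tested.

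The share of annotated alveolar macrophages among all cells of a mouse did not differ between oxygen levels beyond the spread between mice. The mean share was 9.72% in normoxia and 7.07% in hyperoxia at P3, 6.09% and 5.64% at P7, and 6.27% and 4.97% at P14. The differences of -2.64, -0.446 and -1.30 percentage points had adjusted p-values of 0.474, 0.883 and 0.385 (two-sided exact permutation test, 6 against 6 mice, adjusted over 34 types and 3 ages, a family in which 13.7% of the tests passed). The sign of the P7 difference rested on a normoxic mouse (replicate 2, share 10.7%), without which it was 0.482 percentage points. At P3 the difference was -1.22 points without a normoxic mouse (replicate 4). Counted among cells with a UMI of Plet1 only, the mean share at P14 was 6.03% in normoxia and 3.38% in hyperoxia, which is given as a description from which no test is read, since the restriction was chosen after cells without Plet1 had been found in the hyperoxic P14 mice and removes 30.2% of the hyperoxic and 3.94% of the normoxic cells. Within pools the difference was 0.037 and -5.33 points at P3, -1.89 and 0.994 points at P7 and -0.262 and -2.33 points at P14.

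Among myeloid cells the picture was different at P14, where alveolar macrophages made up 45.2% of the myeloid cells in normoxia and 23.2% in hyperoxia (exact permutation test, p = 0.00216, adjusted over 3 ages 0.00649). At P3 the mean was 42.2% in normoxia and 31.9% in hyperoxia (exact permutation test, adjusted p = 0.0227), and at P7 31.4% and 28% (exact permutation test, p = 0.461). Alveolar macrophages outnumbered interstitial macrophages 3.16- to 5.70-fold in the normoxic P14 mice and 0.470- to 2.06-fold in the hyperoxic ones, so that the groups did not overlap. The mean ratio was 4.15 against 1.27 (exact permutation test, adjusted p = 0.00649), and within the 2 pools it went from 4.33 to 1.47 and from 3.96 to 1.06. The other side of this ratio was the share of interstitial macrophages among all cells, which rose from 1.58% to 4.36% at P14 (exact permutation test, adjusted p = 0.0245). At P3 and P7 the ratio was 2.98 and 2.75 in normoxia and 1.83 and 1.97 in hyperoxia (exact permutation test, adjusted p = 0.237 and 0.433). With alveolar macrophages counted by a UMI of Plet1, the P14 mean was 43.5% and 16.0% of the myeloid cells and 3.99 and 0.875 per interstitial macrophage, given as a description for the same reason. A share in dissociated tissue cannot tell a loss of cells from a change in their release or from more cells of other types.

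The median alveolar macrophage carried more UMIs in hyperoxic mice at P7 and P14. The median UMI number per cell, averaged over mice, was 8624 in normoxia and 14458 in hyperoxia at P7 and 5968 and 13297 at P14, without overlap of the groups (exact permutation test, adjusted p = 0.00325 at both ages). Among cells with a UMI of Plet1 the P14 means were 6093 and 15245, given as a description. A UMI of Plet1 selects on depth, with medians of 6012 UMIs in normoxic P14 cells with it and 923 in those without. At P3 the value over all annotated cells was 7135 and 10239 (exact permutation test, p = 0.173), where pools differed in depth. Within pools the P3 ratio was 1.54 and 1.39, and with labels exchanged only within pools the exact permutation p was 0.005, the smallest that 400 relabellings allow. The other cells of the same mice differed by 1.08 times at P3, 1.05 times at P7 and 2.01 times at P14. Relative to the other cells, the alveolar macrophage median rose from 1.54 to 2.10 times at P3 (exact permutation test, p = 0.00433) and from 1.5 to 2.3 times at P7 (exact permutation test, p = 0.00216), and was 1.94 and 2.16 times at P14 (exact permutation test, p = 0.234).

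**Figure D1:**
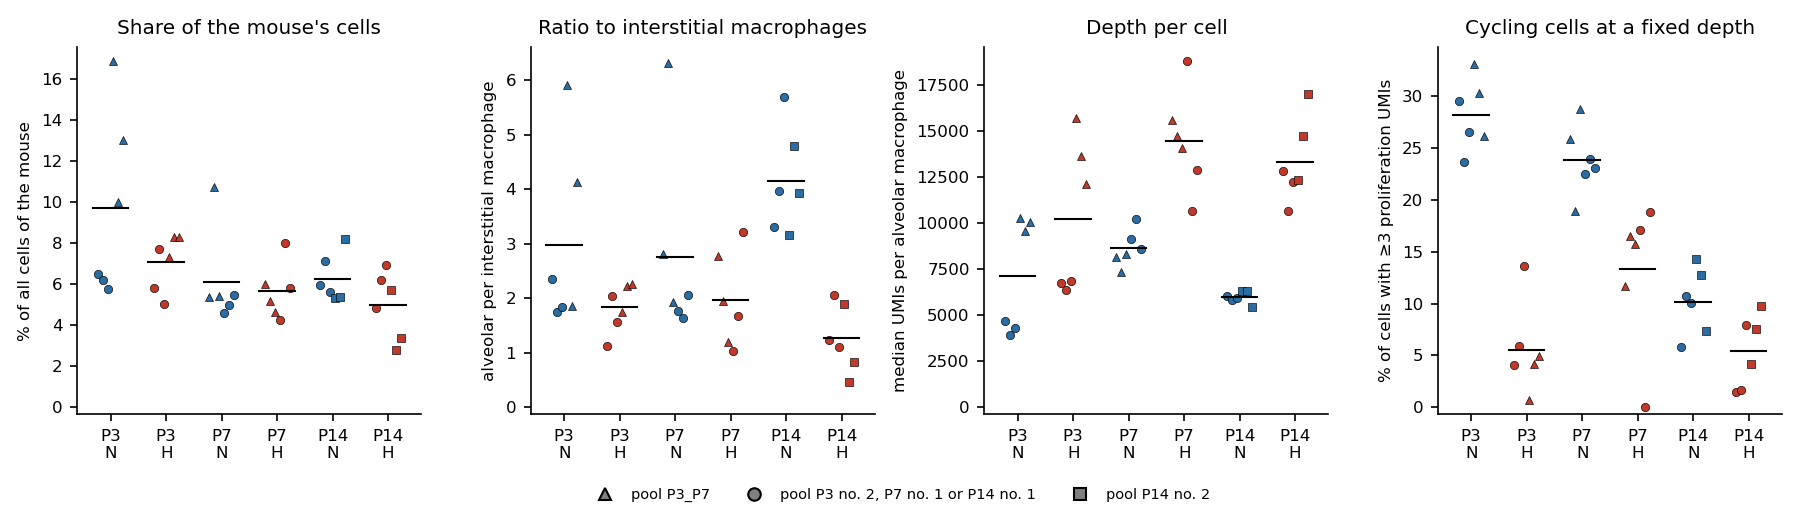
Values of the 36 mice by age and oxygen: share of alveolar macrophages among all cells, ratio of alveolar to interstitial macrophages, median UMIs per alveolar macrophage and percent of cycling alveolar macrophages. Each point is a mouse (blue normoxia, red hyperoxia) and the bar is the mean of 6 mice. The ratio separated the P14 groups at 3.16 to 5.70 against 0.470 to 2.06, and cycling separated the groups at P3. At P7 the cycling groups were only just apart, at 18.9% or more in normoxia and 18.8% or less in hyperoxia.

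Fewer alveolar macrophages were cycling in hyperoxia at P3 and P7, and at P14 the call was lost among cells with a UMI of Plet1. A cell was counted as cycling when it held at least 3 UMIs of 37 proliferation genes after thinning to 1000 UMIs, so that cells were compared at equal depth. The 14 to 32 cells of a group with fewer UMIs were left out. At equal depth the count is relative to all UMIs of a cell, so that more UMIs of other genes also lower it. In normoxia 28.2% of the cells met this count at P3, 23.8% at P7 and 10.2% at P14, as means over mice. The corresponding values in hyperoxia were 5.54%, 13.3% and 5.43%, with no overlap of the groups at P3 and P7 (exact permutation test, adjusted p = 0.00325, 0.00325 and 0.0390). At P7 they were only just apart, at 18.9% to 28.8% in normoxia and 0% to 18.8% in hyperoxia. The 0% came from the hyperoxic mouse (replicate 5) with 10 alveolar macrophages, of which 9 were thinned. With at least 5 UMIs the P7 groups overlapped, at 12.9% to 22.7% and 0% to 16.5% (exact permutation test, adjusted p = 0.0195). In cells with a UMI of Plet1 the shares were 10.1% and 6.40% at P14 and the call was lost (exact permutation test, adjusted p = 0.210), given as a description. At P3 and P7 the groups of these cells did not overlap, at P7 by a small margin (19.1% or more against 19.0% or less). The P14 difference was -3.75 points in these cells and -4.74 points in all cells. The standard deviation of the hyperoxic mice was 5.74 and 3.50 points. The smaller number of cells and the kind of cells counted cannot be told apart in this lost call. Within pools the share fell from 26.6% to 7.84% and from 29.9% to 3.25% at P3, from 24.5% to 14.6% and from 23.2% to 12% at P7, and from 8.86% to 3.69% and from 11.5% to 7.17% at P14. Without thinning, 74.3% and 58.8% of the cells passed at P3, 74.2% and 74.3% at P7, and 57.0% and 62.8% at P14. In normoxia the thinned share fell by 13.7 points from P7 to P14 (exact permutation test, adjusted p = 0.00649) and differed by -4.39 points from P3 to P7 (exact permutation test, adjusted p = 0.0649). The P14 mice had pools of their own, so that age and pool cannot be told apart from P7 to P14.

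Gene expression was then compared over mice, with the UMIs of all alveolar macrophages of a mouse as 1 sample. Effects are log2 fold changes, hyperoxia against normoxia unless stated otherwise, followed by ± and their standard error, and the adjusted p is that of edgeR's quasi-likelihood test after Benjamini-Hochberg adjustment over all genes tested. A gene was called changed at an adjusted p below 0.05 when at least 10% of the cells of either group had a UMI of it. Over all ages, in the model with a term for age, 3772 of 7993 genes (47.2%) were changed by hyperoxia, 1928 (24.1%) higher and 1844 (23.1%) lower. The split between higher and lower depended on the 10% rule and on the scaling. Without the 10% rule, which was applied to cells of unequal depth, 4067 genes were changed, 1953 higher and 2114 lower. TMM scaling, which sets most genes to no change, put 51.1% of the changed genes on the higher side and the median of all genes at -0.02. With plain UMI totals the median lay at -0.28, 4805 genes were changed and 17.3% of them, 830, were higher, while 313 of the 3772 changed genes took the opposite sign. A gene whose transcripts took a growing part of the total was Fth1, the ferritin heavy chain, at 19375 to 29128 CPM (median 22834) in normoxia and 43605 to 74475 CPM (median 59238) in hyperoxia, and its part in the shift was not tested. Directions below are relative to TMM scaling, and for the gene groups over all ages, and for those by age named further on, the counts with plain totals are given beside those with TMM. The markers of other cell types, the groups compared between ages in normoxia and those compared with other cell types have TMM counts only. Where the groups of mice are said not to overlap for a gene, this describes genes mostly picked for their large changes. The share of all tested genes without overlap is not reported here, so that no result is read from it.

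Of the 5 markers, Marco rose and Ear2 fell at every age. Marco was at 222 to 365 CPM (median 241) in normoxia and 730.1 to 1363 CPM (median 1047) in hyperoxia at P3, at 276 to 584 CPM (median 368) and 87.7 to 2842 CPM (median 1737) at P7, and at 312 to 619 CPM (median 543) and 847 to 1914 CPM (median 1381) at P14, so that the groups did not overlap at P3 and P14, and at P7 the hyperoxic mouse with 10 cells lay below the normoxic mice and the other hyperoxic mice above them. The log2 fold change was 2.12 ± 0.30, 2.3 ± 0.30 and 1.76 ± 0.29 (adjusted p = 9.77e-07, adjusted p = 1.25e-07 and adjusted p = 4.63e-06). Marco spans chromosome 1, 120474538 to 120505024, on the minus strand of mm10. Ear2 (chromosome 14, 44102654 to 44103534) went from 1029.9 to 1710.0 CPM (median 1485) to 438 to 896 CPM (median 638) at P3, from 1022 to 1777 CPM (median 1453) to 286 to 874 CPM (median 383) at P7, and from 1517 to 2151 CPM (median 1772) to 133 to 312 CPM (median 186) at P14, without overlap at any age. Its log2 fold change was -0.93 ± 0.20, -1.36 ± 0.21 and -2.82 ± 0.22, and the P14 effect was stronger than that at P3 (-1.89 ± 0.29, adjusted p = 1.34e-05). Restricted to cells with a UMI of Plet1, the P14 log2 fold changes were 2.18 for Marco and -2.46 for Ear2, given as a description. The hyperoxic cells left out held far less Marco and Ear2 than those kept, so that both values depend on the selection. Ear1, Ear2 and Ear6 are near-identical copies, and how the authors' counting split reads between them is uncertain.

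Chil3 (chromosome 3, 106147554 to 106167564, minus strand) was at 7399.8 to 14008 CPM (median 11892) in normoxia and 1153 to 10470.3 CPM (median 2297) in hyperoxia at P14, where all but 1 hyperoxic mouse (replicate 3) lay below the normoxic range. The log2 fold change was -1.34 ± 0.40 at P14 (adjusted p = 0.00665), -1.27 ± 0.42 at P7 (adjusted p = 0.0217) and 0.07 ± 0.42 at P3 (adjusted p = 0.947). Chil3 has close relatives among the chitinase-like genes, so its count is uncertain as well. Mrc1 (chromosome 2, 14229392 to 14332057) fell at P7 and P14, from 571 to 637 CPM (median 599.9) to 186 to 524 CPM (median 405) and from 859 to 999 CPM (median 909.5) to 291 to 547 CPM (median 386), with log2 fold changes of -0.44 ± 0.14 and -0.89 ± 0.14, and the groups did not overlap at either age. Among cells with a UMI of Plet1 the P14 log2 fold changes were -1.01 for Chil3 (adjusted p = 0.0425) and -0.59 for Mrc1 (adjusted p = 1.87e-05), and the P7 call for Chil3 was lost. For Plet1 (chromosome 9, 50494525 to 50505482) the groups overlapped at every age, and its log2 fold change over all ages of 0.30 ± 0.07 (adjusted p = 2.99e-04) was not called with plain totals.

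**Figure D2:**
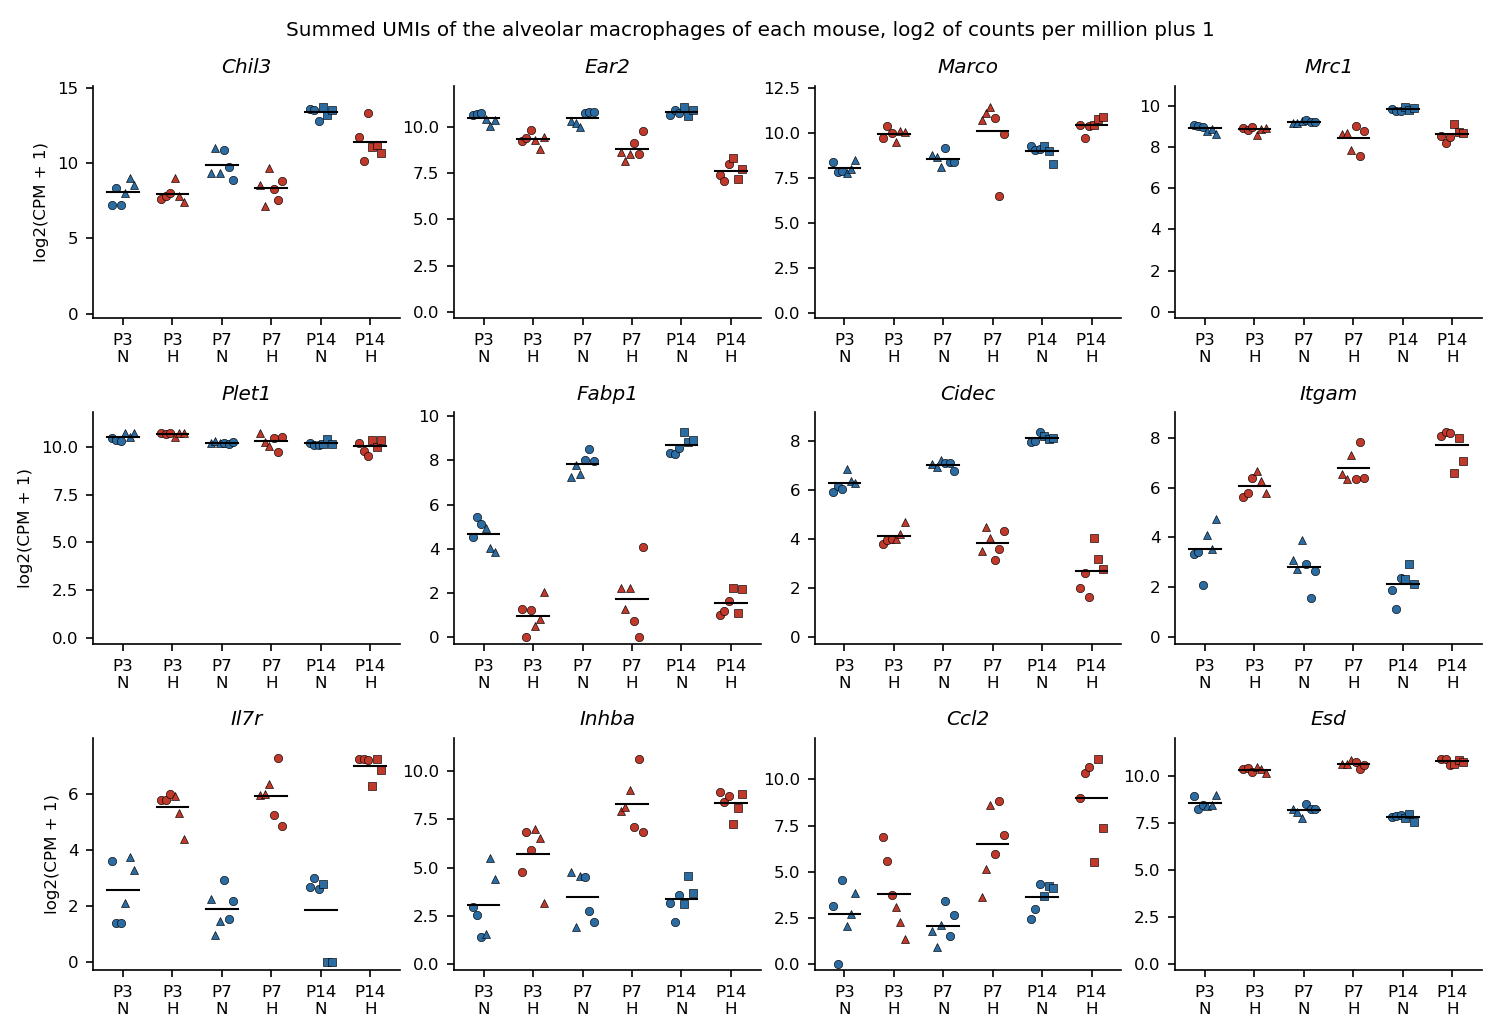
Levels as log2(CPM + 1) of 12 named genes in the alveolar macrophages of each mouse at P3, P7 and P14. Blue symbols are normoxic and red symbols hyperoxic mice, triangles stand for the pool shared by P3 and P7, circles for P3 no. 2, P7 no. 1 and P14 no. 1, squares for P14 no. 2, and the bar is the mean of 6 mice. Itgam, Il7r and Esd separated all hyperoxic from all normoxic mice at each age, and Fabp1 and Cidec did so in the other direction.

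The largest increases over all ages included surface receptors of which alveolar macrophages usually carry little. Itgam (CD11b, the alpha chain of complement receptor 3, chromosome 7, 128062640 to 128118491) was at 1.17 to 25.5 CPM (median 6.07) in the 18 normoxic mice and 48.2 to 297 CPM (median 94.8) in the 18 hyperoxic ones. Il7r (the interleukin-7 receptor alpha chain, chromosome 15, 9505788 to 9530176) was at 0 to 12.4 CPM (median 3.65) and 19.9 to 154 CPM (median 62.4). For both genes the groups did not overlap at any age. The log2 fold change was 4.01 ± 0.28 for Itgam (adjusted p = 1.54e-15) and 4.17 ± 0.26 for Il7r (adjusted p = 8.82e-17). With 1000 UMIs per cell, a UMI of Itgam was found in 1.33%, 0.542% and 0.124% of normoxic cells at P3, P7 and P14 and in 7.76%, 8.86% and 15.2% of hyperoxic cells, against 0.220% of B cells, which serve as the background (unthinned, 1.91% and 61.2% at P14 and 0.891% of B cells, whose median depth was 2181 UMIs). Both genes were lower in the cells with Plet1 than in those without: at P14 in hyperoxia Itgam was at 135 CPM and 489 CPM, and Il7r at 62.3 CPM and 338 CPM. In the cells with Plet1 alone the P14 log2 fold changes were 5.70 for Itgam and 4.26 for Il7r, against 6.28 ± 0.39 and 5.29 ± 0.38 in all cells.

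Among the 8 largest increases were also Inhba, which encodes the subunit of activin A, and Ccl2, a chemokine that recruits monocytes. Inhba (chromosome 13, 16011851 to 16031621) was at 1.62 to 44.8 CPM (median 5.73), 2.83 to 26.5 CPM (median 13.9) and 3.52 to 22.7 CPM (median 9.64) in normoxia at P3, P7 and P14 and at 7.95 to 129 CPM (median 75.9), 114 to 1612 CPM (median 266) and 154 to 480.2 CPM (median 383) in hyperoxia. The groups were apart at P7 and P14 and overlapped at P3, with log2 fold changes of 2.58 ± 0.61, 4.84 ± 0.60 and 5.35 ± 0.62. Among the 34 types only the Car4-positive capillary cells (Cap-a) had a higher mean level of Inhba, 360 CPM against 158 CPM. Ccl2 (chromosome 11, 82035571 to 82037453) was at 0 to 22.7 CPM (median 6.38) in normoxia and 1.59 to 2218 CPM (median 89.5) in hyperoxia, with a log2 fold change of 5.2 ± 0.65 (adjusted p = 7.93e-09). At P14 in hyperoxia 5743 UMIs of Ccl2 were in cells without Plet1 and 191 UMIs in cells with it, and among cells with a UMI of Plet1 the log2 fold change over all ages was 2.03 (adjusted p = 0.000158).

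The other large increases were in Slc11a1, a metal transporter of phagosomes, Rnf128, a ubiquitin ligase, Wfdc17, a small secreted protein, and 2010005H15Rik. Slc11a1 was at 0 to 16.2 CPM (median 1.86) in normoxia and 12.7 to 97.1 CPM (median 42.8) in hyperoxia, with a log2 fold change of 3.4 ± 0.34. Rnf128 was at 1.62 to 18.7 CPM (median 5.77) and 21.9 to 133 CPM (median 47.6), without overlap at any age, and its log2 fold change was 3.30 ± 0.21. For Wfdc17 and 2010005H15Rik the log2 fold changes were 2.96 ± 0.28 and 3.41 ± 0.46, and the latter was 1.72 among cells with a UMI of Plet1.

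The 2 largest decreases were in Fabp1 and Cidec. Fabp1, a fatty acid binding protein (chromosome 6, 71199827 to 71205023), was at 13.7 to 42.9 CPM (median 26.0), 151 to 366 CPM (median 231) and 309.9 to 609 CPM (median 413) in normoxia at P3, P7 and P14 and at 0 to 3.18 CPM (median 1.06), 0 to 15.8 CPM (median 2.52) and 0.984 to 3.73 CPM (median 1.68) in hyperoxia. At P14 this came to 2017 UMIs in normoxic and 14 UMIs in hyperoxic cells, and at P7 to 1108 and 33 UMIs. The log2 fold change over all ages was -5.96 ± 0.26 (adjusted p = 9.81e-22). Cidec, a lipid droplet protein (chromosome 6, 113424634 to 113435760, minus strand), was at 59.1 to 329 CPM (median 134) and 2.09 to 24.7 CPM (median 13.6), with a log2 fold change of -3.24 ± 0.21 (adjusted p = 4.58e-16) and no overlap at any age. With 1000 UMIs per cell, 8.83%, 13.4% and 24.3% of normoxic and 0.878%, 1.82% and 0.932% of hyperoxic cells held a UMI of Cidec at P3, P7 and P14 (unthinned, 72.5% and 8.13% at P14), and no B cell did, 0 of 2270.

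Further decreases among the 8 largest were in Acaa1b, a peroxisomal thiolase, Syne2, a nuclear envelope protein, Ear1, Cyp4f18, which inactivates leukotriene B4, Gal, which encodes the peptide galanin, and AW112010. Syne2 went from 19.1 to 125 CPM (median 65.5) to 0 to 14.5 CPM (median 7.69) (-2.60 ± 0.18) and Cyp4f18 from 53.4 to 94.0 CPM (median 73.9) to 3.49 to 30.8 CPM (median 14.1) (-1.98 ± 0.14). For Ear1, Acaa1b, AW112010 and Gal the log2 fold changes were -2.06 ± 0.23, -1.99 ± 0.23, -1.96 ± 0.21 and -1.95 ± 0.20. Syne2, Cyp4f18, Ear1 and Gal did not overlap between oxygen levels at any age.

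Gene groups were described by their members tested, beside the shares of all genes tested that were higher (24.1%) and lower (23.1%). The antioxidant genes, most of them targets of the stress-responsive factor NRF2, mostly rose: 21 of 29 members tested rose and 2 fell, with a median of 0.74 (20 and 5 with plain totals). Esd, an esterase of glutathione-dependent detoxification, was at 307 to 515 CPM (median 351), 222 to 366 CPM (median 308) and 192 to 255 CPM (median 235) in normoxia and at 1160.3 to 1445 CPM (median 1359), 1359.8 to 1909 CPM (median 1608) and 1547 to 1976 CPM (median 1814) in hyperoxia at P3, P7 and P14. All hyperoxic mice were above all normoxic mice of their age, and the log2 fold change over all ages was 2.63 ± 0.11 (adjusted p = 9.81e-22). Blvrb, which reduces biliverdin, Srxn1, which repairs peroxiredoxins, and Hmox1, which degrades haem, had log2 fold changes of 1.68 ± 0.09, 1.66 ± 0.14 and 1.80 ± 0.25, and the Hmox1 groups overlapped at each age. In 30 members tested by age, 16, 21 and 20 rose at P3, P7 and P14, where 9.17%, 12.6% and 19.9% of all genes were higher, and 0, 1 and 0 fell (12, 19 and 19 rose and 2, 3 and 6 fell with plain totals).

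NRF2 binds DNA with small Maf proteins at the antioxidant response element, and 3 of the genes that rose carry its core letters, TGACNNNGC on either strand, upstream of their start in stretches without an annotated exon. Their stretches of 49 bases from RefSeq (GRCm38.p6, gene strand, 5′ to 3′) are shown because they hold the letters searched for, with the motif in capitals. Gclm (modifier subunit of glutamate-cysteine ligase, chr3:122245403-122245451), Prdx1 (a peroxiredoxin, chr4:116685446-116685494) and Txnrd1 (thioredoxin reductase, chr10:82859094-82859142) carried it 134, 133 and 92 bases before the start.
Gclm: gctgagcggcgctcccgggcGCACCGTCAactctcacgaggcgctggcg
Prdx1: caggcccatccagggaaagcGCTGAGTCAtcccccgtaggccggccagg
Txnrd1: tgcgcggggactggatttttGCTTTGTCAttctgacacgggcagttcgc

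The log2 fold changes of these genes over all ages were 1.15 ± 0.12, 1.25 ± 0.10 and 0.90 ± 0.09. Prdx1 was at 1375 to 1820.0 CPM (median 1552) in normoxia and 2721 to 4631 CPM (median 3756) in hyperoxia at P14, Gclm at 56.3 to 92.2 CPM (median 67.2) and 95.5 to 197 CPM (median 156), and Txnrd1 at 107 to 169 CPM (median 124) and 182 to 279 CPM (median 252). The motif was found in the 250 bases before the start of 8 of 29 list members with a window (27.6%) and of 4 of the 17 that rose (23.5%), beside 14.2% of 6420 tested genes and 10.2% of 32851 windows in all. A match of these letters describes the sequence and shows no binding.

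Genes of iron and haem metabolism moved with the antioxidant list, with which they share Hmox1, Blvrb, Fth1 and Ftl1: 6 of 11 members tested rose and 1 fell, with a median of 1.17 (6 and 3 with plain totals). Fth1 rose by 1.63 ± 0.08 (adjusted p = 5.68e-21), without overlap at any age. Its reads can be shared with processed copies in the genome, so its level is uncertain. Targets of the tumour suppressor p53 rose in 11 of 19 members tested and fell in 3, with a median of 0.59 (9 and 3 with plain totals). Zmat3, Plk2, Phlda3 and Ccng1, all known p53 targets, had log2 fold changes of 1.85 ± 0.13, 1.77 ± 0.15, 1.56 ± 0.12 and 1.39 ± 0.09. Zmat3 and Ccng1 were higher in every hyperoxic mouse than in every normoxic mouse of the same age.

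The proliferation genes fell as a group, 31 of 37 members tested, and none rose, with a median of -1.45 (31 and 0 with plain totals). Top2a, the topoisomerase of dividing cells, was at 139.9 to 218 CPM (median 166) in normoxia and 2.95 to 74.7 CPM (median 19.6) in hyperoxia at P3, and at 46.9 to 99.9 CPM (median 56.6) and 0 to 46.6 CPM (median 16.3) at P14, with a log2 fold change of -1.72 ± 0.24 over all ages. Kif23, Prc1 and Nusap1, which act in cell division, had -1.88 ± 0.21, -1.87 ± 0.23 and -1.83 ± 0.27. By age, 36 of 37 members fell at P3, and the number was 19 at P7 and 10 at P14, where 8.5%, 12% and 17.3% of all genes were lower (36, 31 and 14 with plain totals).

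Lysosomal genes and proteases rose in 22 of 30 members tested and fell in 3, with a median of 0.75 (20 and 5 with plain totals). Cd63, a tetraspanin of late endosomes, was at 182 to 306 CPM (median 242) in normoxia and 1093 to 1661 CPM (median 1398) in hyperoxia at P14 and rose by 1.98 ± 0.15 over all ages. Gpnmb, a lysosomal glycoprotein, rose by 1.94 ± 0.17 and Mmp12, macrophage elastase, by 2.83 ± 0.48, whereas Slpi, an inhibitor of serine proteases, fell (-1.73 ± 0.19). Scavenging genes and lectins rose in 15 of 22 members tested and fell in 4, with a median of 0.73 (12 and 4 with plain totals). Besides Itgam and Marco, the lectin receptor Clec4d and the scavenger receptor gene Msr1 rose, by 2.45 ± 0.21 and 1.67 ± 0.18. Lgals3, which encodes galectin-3, rose by 0.93 ± 0.07.

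Nuclear genes of oxidative phosphorylation rose by small amounts, 38 of 39 members with 1 lower and a median of 0.35, a count that depended on the scaling (14 higher and 2 lower with plain totals, median 0.09). Cox7a2, Uqcrq, Ndufs5 and Cox7b, subunits of respiratory complexes, had log2 fold changes between 0.60 ± 0.06 and 0.80 ± 0.06. Of the 13 genes encoded by mitochondrial DNA 8 rose and none fell with TMM (median 0.21), but 3 rose and 4 fell with plain totals (median -0.04), so that no direction is given for the group. Glycolytic and hypoxia-response genes rose in 15 of 21 members tested and fell in 1, with a median of 0.55 (11 and 2 with plain totals). The glucose transporter gene Slc2a1 rose by 1.94 ± 0.17, the glycolytic enzyme gene Pgam1 by 1.5 ± 0.11, Hk3 by 0.87 ± 0.20 and Hif1a, the oxygen-regulated transcription factor, by 0.80 ± 0.09. Genes of the unfolded protein and integrated stress responses rose in 9 of 17 members and fell in 4, with a median of 0.28 (7 and 4 with plain totals, median 0.02), and included Trib3, Asns, Slc7a11 and Ddit3 with 2.10 ± 0.22, 1.73 ± 0.22, 1.61 ± 0.19 and 1.16 ± 0.18.

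Cytokines, chemokines and growth factors rose in 16 of 28 members tested and fell in 1, with a median of 1.0 (15 and 3 with plain totals). Ccl9, a chemokine of myeloid cells, was at 54.1 to 177 CPM (median 64.9) in normoxia and 551 to 1583 CPM (median 980.4) in hyperoxia at P14 and rose by 2.64 ± 0.26 over all ages. The neuropeptide gene Npy was nearly absent in normoxia, with 1 UMI in all normoxic P14 cells against 271 UMIs in hyperoxic ones, and its groups did not overlap at any age. Genes of the NF-kappaB response and inflammasome did not move one way: 3 of 22 rose and 7 fell, with a median of 0.04 (3 and 11 with plain totals, median -0.22). In that list Pycard, the inflammasome adaptor ASC, rose (1.1 ± 0.11), as did Sod2 (0.74 ± 0.11) and Ier3 (1.36 ± 0.23, and 0.64 among cells with a UMI of Plet1), and Myd88, the adaptor of Toll-like receptors, fell (-0.86 ± 0.12).

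Of the M1 and M2 genes, a set of labels for inflammatory and alternative macrophage states, 1 of 12 rose and 5 fell, with a median of -0.20 (1 and 7 with plain totals). The list holds both labels together, so that its count gives no direction for either. The study took the M1 and M2 signatures apart at P14, which this joint count does not address. The riser was Cd86, a costimulatory molecule (1.07 ± 0.24), which did not pass the filter on low counts among cells with a UMI of Plet1, and Chil3, Tlr2 and Irf5 were among those that fell, with -0.69 ± 0.09 for Tlr2 and -0.51 ± 0.12 for Irf5. Interferon-response genes rose in 3 of 10 members tested and fell in 3, with Bst2 at 0.91 ± 0.13, Ifitm2 at 0.76 ± 0.11 and Ifi27l2a at -0.60 ± 0.20 (2 and 3 with plain totals). In antigen presentation 2 of 16 rose and 4 fell, with a median of 0.13 (1 and 6 with plain totals, median -0.11), and H2-DMa, which loads peptide on MHC class II, fell (-1.58 ± 0.12) without overlap at any age. Immediate early genes, which also respond to tissue dissociation, rose in 2 of 17 and fell in 5, with a median of -0.20 (1 and 11 with plain totals).

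The identity genes of alveolar macrophages did not move one way. Of 30 members, all tested, 14 rose and 11 fell, with a median of -0.01 (12 and 15 with plain totals, median -0.26). Fabp5, which binds fatty acids, rose from 949 to 1258 CPM (median 1128) to 3800.2 to 6514 CPM (median 4712) at P14 (2.43 ± 0.18), in the same sums per mouse in which Fabp1 and Cidec fell. Lipid and surfactant handling likewise held 12 members that rose and 11 that fell of 33, with a median of -0.09 (8 and 17 with plain totals). Of the receptors and transcription factors of the GM-CSF and TGF-beta pathways, 7 of 23 rose and 8 fell, with a median of 0.06 (2 and 13 with plain totals, median -0.20). Bhlhe41, a repressor that alveolar macrophages need for self-renewal, rose (1.03 ± 0.07), whereas Tgfbr1, a TGF-beta receptor, and Skil, a repressor of TGF-beta signalling, fell (-0.56 ± 0.10 and -0.53 ± 0.08).

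The study names 19 receptors, ligands and labels for these cells on the same mice, so that their directions are no independent evidence. Of 17 tested over all ages 9 rose and 5 fell, with a median of 0.37 (6 and 6 with plain totals, median 0.11). Ifngr1, a chain of the interferon-gamma receptor, fell at every age without overlap (-0.81 ± 0.07 over all ages), whereas Ifngr2, the other chain, rose (0.43 ± 0.08). The tumour necrosis factor receptor gene Tnfrsf1b rose by 0.52 ± 0.08, Plaur, the urokinase receptor, by 0.49 ± 0.11, and Il13ra1, a chain of the interleukin-13 receptor, by 0.37 ± 0.09, and the calls for Plaur and Il13ra1 were lost with plain totals. Cd44 and Ptprc (CD45) fell (-0.31 ± 0.06 and -0.28 ± 0.07). Il4ra (-0.08 ± 0.14) was not called over all ages, no direction is given for Adgre1 because it reversed with plain totals, and Mmp9 did not pass the filter on low counts. Csf1, the growth factor of macrophages, was tested by age and rose at P14 (3.92 ± 0.54). All normoxic cells of that age held 5 UMIs of it and all hyperoxic cells 86 UMIs. Csf1 met the rule on detection only in the hyperoxic group, whose cells carried more UMIs (12.9% of cells against 0.597% in normoxia). With 1000 UMIs per cell, 2.10% of hyperoxic and 0% of normoxic P14 cells held a UMI of it. Among cells with a UMI of Plet1 it did not pass the filter on low counts.

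**Figure D3:**
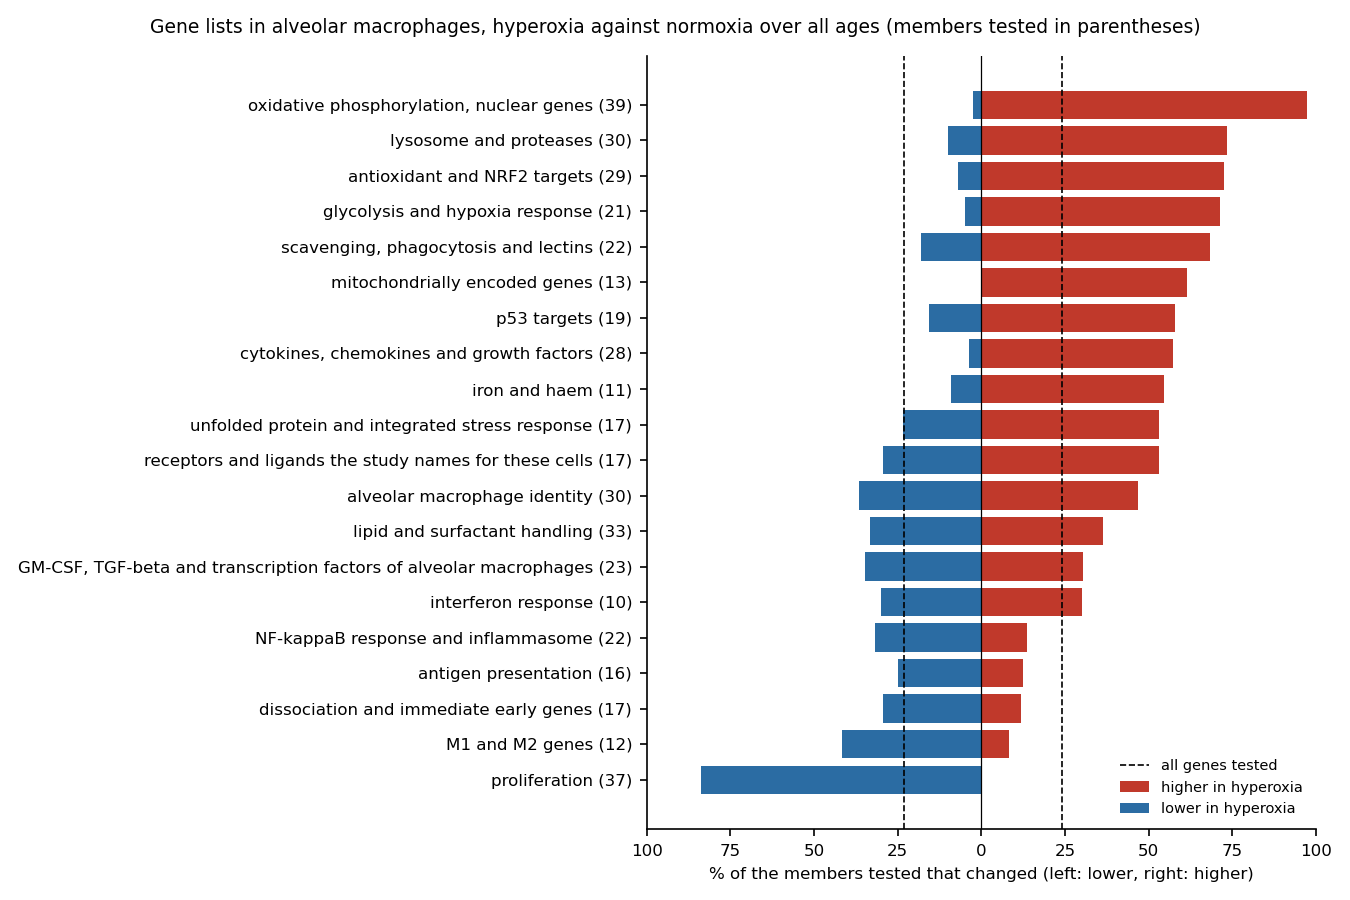
Percent of the members tested of each gene list that were higher (right) or lower (left) in hyperoxia over all ages, with TMM scaling. Dashed lines mark all genes tested, 24.1% higher and 23.1% lower. Proliferation lies on the lower side and oxidative phosphorylation and antioxidant genes on the higher side, and with plain UMI totals the oxidative phosphorylation count fell to 14 of 39 and the mitochondrially encoded genes lost their direction.

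Of the markers of other cell types that were tested over all ages, where 47.2% of all genes were changed, 1 rose and 1 fell of 6 for interstitial macrophages, 1 and 1 of 5 for monocytes, 2 and 1 of 4 for neutrophils, 1 and 0 of 9 for alveolar type 2 cells, 0 and 2 of 4 for club and ciliated cells, 2 and 2 of 8 for endothelium, 0 and 0 of 5 for fibroblasts and 0 and 0 of 4 for red blood cells. No marker of lymphocytes or dendritic cells passed the filter on low counts. By age, 4 of 9 alveolar type 2 markers rose at P7 and 0 fell (median 1.01), where 12.6% of all genes were higher, and the interstitial macrophage markers had a median of 2.94 at P14, with 2 of 9 that rose and 0 that fell. The part of such transcripts in the results at these ages was not tested. For neutrophils the 2 that rose were S100a8 (1.26 ± 0.21) and S100a9 (2.18 ± 0.49). Among cells with a UMI of Plet1 S100a8 was at 0.63 (adjusted p = 6.45e-04) and the S100a9 call was lost, at 0.23 (adjusted p = 0.572).

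The number of changed genes was 1469 of 8314 (17.7%) at P3, 2044 (24.6%) at P7 and 3098 (37.3%) at P14. In each direction these were 762 higher (9.17%) and 707 lower (8.5%) at P3, 1048 (12.6%) and 996 (12%) at P7, and 1658 (19.9%) and 1440 (17.3%) at P14. With plain totals the counts were 318 and 2008 at P3, 513 and 2348 at P7, and 842 and 3069 at P14. With 49 cells from each of the 35 mice with at least 25 cells they were 866, 1024 and 2194, and the number also rose with age.

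At P3 the largest increases were in S100a9, a calcium-binding protein abundant in neutrophils, Il7r, Inhba and Itgam. S100a9 went from 21.9 to 75.8 CPM (median 38.9) to 31.0 to 1411 CPM (median 282) (3.67 ± 0.76), the groups overlapped, and the summed neutrophil markers of the same mice ranged from 397 to 609 CPM in normoxia and 282 to 3252 CPM in hyperoxia. Among cells with a UMI of Plet1 its log2 fold change was 1.05 and no longer called (adjusted p = 0.0911). The part of neutrophil RNA in it was not tested. Il7r rose from 1.59 to 12.4 CPM (median 5.97) to 19.9 to 62.5 CPM (median 53.6) and Itgam from 3.24 to 25.5 CPM (median 10.0) to 48.2 to 99.9 CPM (median 65.3) at this age, without overlap, by 2.99 ± 0.37 and 2.54 ± 0.31. The largest decreases were in Fabp1 (-4.12 ± 0.57) and in Ube2c, Cdca3 and Prc1, which act in mitosis (-3.0 ± 0.45, -2.94 ± 0.35 and -2.94 ± 0.36), and all of them were lower in every hyperoxic mouse.

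At P7 Itgam, Il7r, Inhba and Slc11a1 rose most, by 4.0 ± 0.36, 4.41 ± 0.45, 4.84 ± 0.60 and 3.80 ± 0.49. Slc11a1 went from 0 to 14.1 CPM (median 1.74) to 23.7 to 97.1 CPM (median 41.3), without overlap. Fabp1 (-5.36 ± 0.34), Cidec (-2.95 ± 0.21), Syne2 (-2.34 ± 0.22) and Cfp (-2.15 ± 0.23) fell most. Cfp, which encodes the complement regulator properdin, was at 72.8 to 164 CPM (median 96.9) in normoxia and 11 to 26.1 CPM (median 18.7) in hyperoxia, and the groups did not overlap.

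At P14 the largest increases among changed genes with a mean log2 CPM of 5 or more were in the chemokine genes Ccl7 and Ccl2, in Itgam and in Slc11a1. Ccl7 was at 0.902 to 4.87 CPM (median 3.13) in normoxia and 5.97 to 773 CPM (median 241) in hyperoxia, 13 against 1709 UMIs in all, and Ccl2 at 4.51 to 19.3 CPM (median 14.1) and 44.8 to 2218 CPM (median 903). The log2 fold changes were 6.99 ± 0.91 and 6.57 ± 0.84. These chemokines lay almost wholly in cells without Plet1, with Ccl7 at 1102 CPM against 5.03 CPM in the cells with Plet1 and Ccl2 at 3757 CPM against 40.0 CPM. Among cells with a UMI of Plet1 Ccl7 did not pass the filter on low counts and Ccl2 rose by 1.99 (adjusted p = 0.00612). Without the cells that held a UMI of a C1q gene, 13.3% of the cells at P14 in hyperoxia and 4.66% in normoxia, the log2 fold changes were 5.12 for Ccl7 and 5.65 for Ccl2.

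Itgam went from 1.17 to 6.49 CPM (median 3.61) to 96.3 to 297 CPM (median 259.7) at P14, and Slc11a1 from 0 to 3.25 CPM (median 1.06) to 41.8 to 96.4 CPM (median 83.4) (6.09 ± 0.59), both without overlap. C3ar1, the receptor for the complement fragment C3a, was nearly absent in normoxia, at 2 UMIs in all cells against 230 UMIs in hyperoxia, of which 208 were in cells without Plet1. Fabp1 (-7.19 ± 0.37), Cidec (-5.03 ± 0.22), Syne2 (-3.80 ± 0.23) and Acaa1b (-3.71 ± 0.22) fell most. Acaa1b was at 166 to 261 CPM (median 232) in normoxia and 3.50 to 25.4 CPM (median 11.6) in hyperoxia. Each of these decreases was called again among cells with a UMI of Plet1, where the number of changed genes was 2947.

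**Figure D4:**
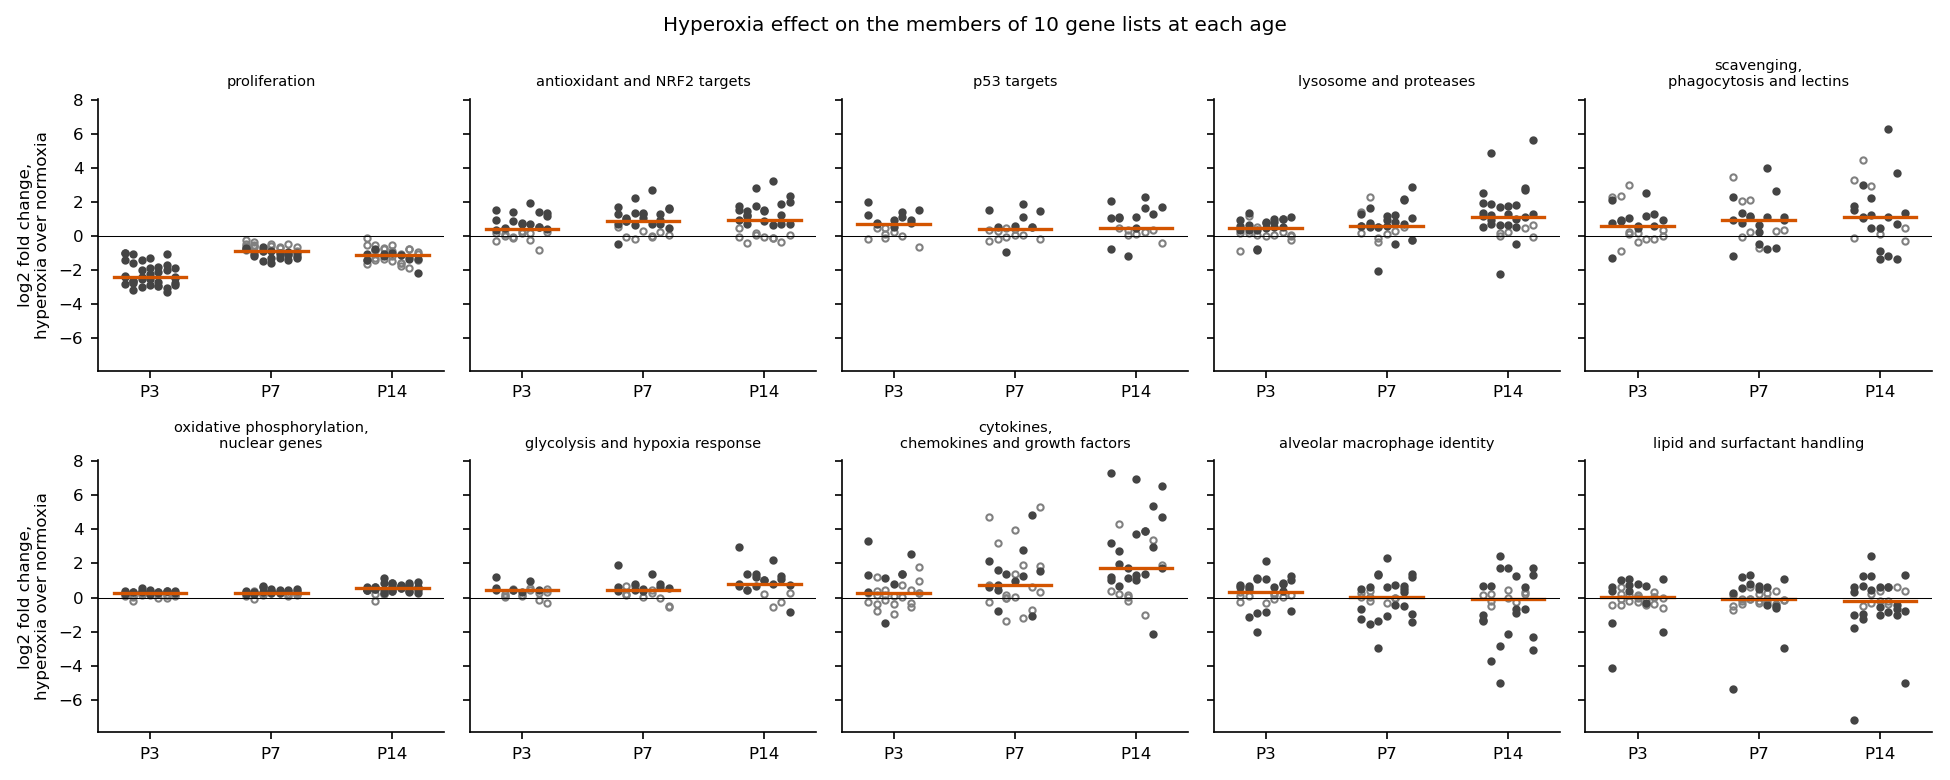
Log2 fold changes (hyperoxia against normoxia, TMM scaling) of the tested members of the gene lists at P3, P7 and P14. Filled points are changed members, open points are not, and the orange bar is the median. The median of the cytokine list rose from 0.27 at P3 to 1.76 at P14 and that of the proliferation list from -2.40 to -1.12. With plain totals all medians shift down, by the shift of all genes at that age. The medians are over all annotated cells, at P14 in hyperoxia also those without Plet1, in which Ccl2 and Ccl7 lay almost wholly. Medians for cells with Plet1 alone are not reported here.

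For 1036 genes (12.5%), 531 (6.39%) with a higher and 505 (6.07%) with a lower log2 fold change at P14, the effects of hyperoxia at P14 and P3 were unequal. The largest positive differences were in Ccl7 (7.93 ± 2.00), Mmp12 (5.61 ± 0.94), H2-Ab1 (4.84 ± 0.88) and Ccl2 (4.75 ± 1.58). Mmp12 was at 3.11 to 88.6 CPM (median 7.20) and 3.98 to 28.3 CPM (median 19.2) at P3 in normoxia and hyperoxia and at 2.03 to 16.2 CPM (median 4.55) and 88.1 to 479 CPM (median 207) at P14. H2-Ab1 was at 1.62 to 62.0 CPM (median 4.80) and 1.36 to 8.50 CPM (median 2.72) at P3 and at 11 to 23.3 CPM (median 18.0) and 46.8 to 219 CPM (median 125) at P14. Among cells with a UMI of Plet1 the differences were 3.78 for Mmp12 (adjusted p = 0.00261), 3.03 for H2-Ab1 (adjusted p = 0.0331) and 2.60 for Ccl2, no longer called (adjusted p = 0.105), and Ccl7 was not tested. The P14 effect itself was 4.91 for Mmp12 among these cells and 0.79 for H2-Ab1 (adjusted p = 0.239).

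S100a6, a calcium-binding protein, rose by 3.81 ± 0.34 at P14 and by 2.22 among cells with Plet1, and its P14 effect exceeded that at P3 in both. In the negative direction the largest differences were in Krt79, a keratin of alveolar macrophages (-3.24 ± 0.44), Acaa1b (-3.17 ± 0.31), Cidec (-3.02 ± 0.33) and Ear1 (-2.57 ± 0.33). Krt79 was at 25.5 to 60.0 CPM (median 32) and 18.5 to 42.9 CPM (median 39.7) at P3 and at 182 to 314 CPM (median 235) and 8.86 to 60.5 CPM (median 15.1) at P14, so that its median went up with age in normoxia and down in hyperoxia. Cytokines and lysosomal genes had a higher log2 fold change at P14 in 13 of 31 and 13 of 31 members tested and a lower one in 1 each, whereas identity genes had a lower one in 13 of 30 and a higher one in 3. With plain totals the higher and lower numbers were 12 and 1 for cytokines, 13 and 1 for lysosomal genes and 2 and 13 for identity genes. Of the interstitial macrophage markers 2 of 9 had a higher log2 fold change at P14 and 0 a lower one, with a median difference of 0.97 (TMM). These counts include the cells without Plet1, in which Ccl2 and Ccl7 lay almost wholly at P14 in hyperoxia. Counts for cells with Plet1 alone are not reported here.

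Between P3 and P7 in normoxia 179 of 8314 genes (2.15%) were changed, 95 higher (1.14%) and 84 lower (1.01%), and without a normoxic P3 mouse (replicate 6) only 70. With the pool as a block, which sets P3 and P7 mice of the shared pool against each other, 270 were changed, of which 132 were among the 179. The largest increases were in the haemoglobin genes Hbb-bt, Hbb-bs and Hba-a2, which can exchange reads, by 6.21 ± 1.65, 6.12 ± 1.67 and 5.68 ± 1.56, and in Fabp1 by 3.21 ± 0.26. Hbb-bs was at 16.2 to 25.8 CPM (median 19.5) at P3 and 27.5 to 4365 CPM (median 159) at P7, and the 5 summed markers of red blood cells ranged from 22.7 to 39.4 CPM and from 39.5 to 6632 CPM. The part of free RNA from lysed red blood cells in this was not tested. Fabp1 rose from 13.7 to 42.9 CPM (median 26.0) to 151 to 366 CPM (median 231), without overlap. Ear6, Fkbp11, S100a6 and Crip1 fell most, with log2 fold changes of -2.34 ± 0.42, -2.18 ± 0.35, -2.07 ± 0.32 and -2.05 ± 0.27. Lysosomal genes fell in 8 of 31 members and rose in 1.

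From P7 to P14 in normoxia 713 genes (8.58%) were changed, 319 higher (3.84%) and 394 lower (4.74%), and 449 without a normoxic P14 mouse (replicate 6). Every pool of the P14 mice held P14 mice only, so that age and pool cannot be told apart here. Chil3 rose most, from 483 to 2097 CPM (median 762) to 7399.8 to 14008 CPM (median 11892) (3.29 ± 0.43), without overlap. With 1000 UMIs per cell, 12.3%, 35.4% and 86.6% of the normoxic cells held a UMI of Chil3 at P3, P7 and P14, and 12.4%, 14.1% and 45.9% of the hyperoxic cells, against 3.66% of B cells. Wfdc21, Krt79 and Mgp rose by 1.72 ± 0.30, 1.52 ± 0.26 and 1.48 ± 0.15. The neutrophil-attracting chemokine genes Cxcl1 and Cxcl2, Gm1673 and the histone gene Hist1h1b fell, with log2 fold changes of -1.73 ± 0.49, -1.70 ± 0.34, -1.69 ± 0.32 and -1.69 ± 0.48. Cxcl2 was at 1264 to 2941 CPM (median 2241) at P7 and 425 to 963 CPM (median 649.7) at P14. Proliferation genes fell in 23 of 37 members with none higher, whereas identity genes rose in 9 of 30 and lipid genes in 10 of 33 with none lower.

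The response to hyperoxia was compared with that of interstitial macrophages in the same 35 mice, those with at least 10 cells of both types. The hyperoxic mean levels printed here cover 18 mice for alveolar macrophages and 17 for interstitial macrophages, and 17 for the monocytes further below. The log2 fold change differed for 1374 of 9334 genes (14.7%), 691 more positive in alveolar macrophages (7.4%) and 683 more negative (7.32%). A UMI in 10% of the cells of either type was enough for a call, so that these counts and those by list can include genes nearly absent from the other type. Il7r, Itgam, C3ar1 and Ccl2 had the largest positive differences, 4.54 ± 0.42, 3.64 ± 0.29, 3.36 ± 0.56 and 3.28 ± 0.81. Mean levels of Itgam went from 7.57 to 138 CPM in alveolar macrophages and from 79.3 to 109 CPM in interstitial macrophages. Those of Il7r went from 4.48 to 83.3 CPM and from 14 to 11.4 CPM. Ccl2 went from 8.56 to 394 CPM and from 1164 to 1408 CPM, so that interstitial macrophages kept the higher level at both oxygen levels. The part of the cells without Plet1 in the differences for C3ar1 and Ccl2 was not tested.

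The largest negative differences were in Cyp4f18 (-1.92 ± 0.26), Cidec (-1.84 ± 0.57, with means of only 12 and 4.02 CPM in interstitial macrophages), the lectin gene Clec4a3 (-1.81 ± 0.19) and C5ar1, the receptor for the complement fragment C5a (-1.81 ± 0.17). C5ar1 went from 207 to 60.6 CPM in alveolar macrophages and from 232 to 246 CPM in interstitial macrophages. Esd, with 307 and 1578 CPM against 220.0 and 289 CPM, had a difference of 2.18 ± 0.12. By list, the difference was positive in 16 of 31 antioxidant genes and 15 of 33 lysosomal genes and negative in 26 of 37 proliferation genes. Of the 12 marker genes of interstitial macrophages 7 had a positive and 0 a negative difference, with a median of 1.99, beside 7.4% of all genes with a positive one, and their part in the differences of C3ar1 and Ccl2 was not tested.

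Against monocytes the log2 fold change differed for 1633 of 9112 genes (17.9%), 872 more positive (9.57%) and 761 more negative (8.35%) in alveolar macrophages. A UMI in 10% of the cells of either type was enough for a call. These counts therefore include genes nearly absent from monocytes and are no count of differences in response. Of the genes named by the size of this difference, Itgam had 4.07 ± 0.27. The mean level of Itgam in monocytes was 276 CPM in normoxia and 262 CPM in hyperoxia, above that of alveolar macrophages at both oxygen levels. Syngr1, which encodes a vesicle protein, was at 3.25 to 33.6 CPM (median 14) in normoxic and 49.3 to 216 CPM (median 93.2) in hyperoxic alveolar macrophages. The others were Il7r, Syngr1, Mmp12, Fabp1, Krt79, Acaa1b and Kazald1, each with a mean level of at most 1.94 CPM and a median of 0 CPM in monocytes at both oxygen levels, so that monocytes held too few UMIs of them for a response to be compared, and no difference is read from them. Antioxidant genes had a positive difference in 17 of 32 members tested and proliferation genes a negative one in 20 of 37, counts that can include genes nearly absent from monocytes.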

How the data were processed

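The authors made the UMI counts per gene and cell with Cell Ranger 3.0.2 on mm10, kept cells with a single MULTI-seq sample barcode, filtered on genes and mitochondrial reads, removed clusters judged contaminants and deposited raw counts for 61839 cells, with their cell types and the percent of mitochondrial UMIs of each cell. They also deposited counts of sample barcodes. Cells were clustered by the authors after SCTransform and integration. No doublet caller was run here. Each mouse was identified by pool and sample barcode. A pool is a shared tagging and loading of mice, of each age 3 normoxic and 3 hyperoxic, and 1 of the 5 pools held 2 ages. Its mice deviated together (mean correlation of deviations 0.107 in 54 pairs of opposite oxygen level, against -0.104 in 54 pairs from other pools), and the pool entered as a block in an alternative, since the study's tests name none. The study isolated the lungs of a group on separate occasions and sequenced them separately, and each group lay in 2 pools.

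The UMIs of the alveolar macrophages of a mouse were summed, with at least 10 cells per mouse, and tested in R 4.3.3 with edgeR 4.0.16 (TMM, filterByExpr, glmQLFit, glmQLFTest) and Benjamini-Hochberg adjustment over the genes tested, in a model over all ages with a term for age and in a model with 6 group means. For differences between cell types the sums of both types of a mouse entered 1 model. The standard error is the log2 fold change divided by the square root of F. Shares, ratios and UMIs per cell were compared by two-sided exact permutation tests, whose smallest p is 0.00216. P-values measure the spread between these mice. In the study the oxygen level was set for whole cages of pups. Cage and litter are not labelled, so that their part in the differences was not tested. Intervals and floors would cover counting error only and none is printed. Named were the 5 markers, the genes the study names for the type, per comparison the 4 (over all ages 8) largest increases and decreases among changed genes whose mean log2 CPM was 5 or more, and up to 4 changed members of each list. Some named genes are not reported here. The members, the lists and this rule were chosen with earlier results of these data known. Alternatives were DESeq2 1.42.0, no filter on low counts, the pool block, at least 25 cells, 49 cells from each of the 35 mice with at least 25, thinned sums, leaving out each mouse, and, added after the data were seen, an age term, plain totals, no cells with C1q UMIs and only cells with Plet1 UMIs. The 10% rule on detection was also left out in an alternative. The code was tested on simulated counts. Tables were made with Python 3.11.15, numpy 2.4.6, pandas 2.3.3 and scipy 1.17.1. Gene positions come from GENCODE vM21 (GRCm38).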

Additional observations from a re-analysis of the deposited data

Results flagged for a closer look

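Each group held 6 mice, and of 150 groups of values examined, 14 held a mouse whose gap to its nearest neighbour was above Dixon's 95% critical share of the range, which chance alone gives in about 1 of 20 groups. The normoxic P7 replicate 2 had a share of alveolar macrophages of 10.7% of its cells, against 4.60% to 5.48% in the other normoxic P7 mice, and 6.32 alveolar macrophages per interstitial macrophage, against 1.63 to 2.82. Its Slc11a1 level was 14.1 CPM, against at most 3.78 CPM. The hyperoxic P7 replicate 5, with 10 alveolar macrophages, had Inhba at 1612 CPM, against at most 529.8 CPM in the other hyperoxic P7 mice, and AW112010 at 285 CPM, against at most 102.6 CPM. The hyperoxic P3 replicate 4 lay apart in AW112010 (161 CPM), Chil3 (528 CPM), Mrc1 (379 CPM) and Plet1 (1427 CPM). The hyperoxic P14 replicate 3 had Chil3 at 10470.3 CPM, against 1153 to 3496 CPM in the other hyperoxic P14 mice. Single genes lay apart in the normoxic P7 replicate 3 (2010005H15Rik, 18.0 CPM), the hyperoxic P7 replicate 6 (Fabp1, 15.8 CPM), the normoxic P14 replicate 6 (Marco, 312 CPM) and the normoxic P14 replicate 5 (Plet1, 1327 CPM).

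Effects of hyperoxia that passed the test of a difference between groups are the following, as differences of log2 fold changes. Between P14 and P3 they were 7.93 for Ccl7, 5.61 for Mmp12, 4.84 for H2-Ab1, 4.75 for Ccl2, -3.24 for Krt79, -3.17 for Acaa1b, -3.02 for Cidec and -2.57 for Ear1. Between alveolar and interstitial macrophages they were 4.54 for Il7r, 3.64 for Itgam, 3.36 for C3ar1, 3.28 for Ccl2, -1.92 for Cyp4f18, -1.84 for Cidec, -1.81 for Clec4a3 and -1.81 for C5ar1. Between alveolar macrophages and monocytes they were 5.53 for Il7r, 4.07 for Itgam, 3.65 for Syngr1, 3.52 for Mmp12, -6.66 for Fabp1, -3.82 for Krt79, -3.68 for Acaa1b and -2.94 for Kazald1. Except for Itgam, these genes had a median of 0 CPM in monocytes at both oxygen levels, so that their fitted differences are set by counts near 0 in monocytes and are not read as a difference in response. The genes of these 24 differences were taken as the largest in each direction of each comparison. The part of the cells without Plet1 in the differences from interstitial macrophages and monocytes was not tested.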

How the results depend on the processing

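Most counts of changed genes stayed within 1.5 times under the alternatives run, and the exceptions are given here. With 49 cells from each of the 35 mice with at least 25 cells, which also leaves out hyperoxic P7 replicate 5, they were 866 at P3, 1024 at P7, 461 for the difference between P14 and P3, 45 between P3 and P7 and 297 between P7 and P14. Plain UMI totals gave 2326 at P3. With the pool as a replicate block, the number from P3 to P7 in normoxia was 270, and the block changed no other count by more than 1.5 times and could not be estimated from P7 to P14, where that fit was not run. Without each mouse in turn, the number from P3 to P7 was 70 to 197, and 70, 99, 109 and 117 without normoxic P3 replicate 6, P7 replicate 1, P3 replicate 1 and P7 replicate 3. The number from P7 to P14 was 449 to 762, with 449 without normoxic P14 replicate 6, and the share difference was -3.43 to -1.22 percentage points at P3, -0.918 to 0.482 points at P7 and -1.69 to -0.861 points at P14, and -4.23 to -2.02 points from P3 to P14 in normoxia, the upper values without normoxic P3 replicate 4, normoxic P7 replicate 2, hyperoxic P14 replicate 5 and normoxic P3 replicate 4. Among cells with a UMI of Plet1, an alternative added after the data were seen, the P14 differences were -2.66 points in the share and -3.75 points in cycling cells. No test is read from either, since the restriction removes 30.2% of the hyperoxic and 3.94% of the normoxic P14 cells. The second no longer passed the threshold. As a percentage of myeloid cells, the P14 share difference was -22.1 points, and the normoxic difference from P3 to P14 was 3.05 points where it was -3.45 points of all cells. Without thinning, the P14 difference in cycling cells was 5.81 points. The log2 fold change over all ages was -0.023 for Adgre1 with plain totals and -0.095 for Cxcl1 among cells with a UMI of Plet1. For 116 genes named over all ages, 5295 of 5328 values under alternatives kept direction and call, 31 lost the call and 2 reversed. For 101 named at P14 the numbers were 4490 of 4537, 47 and 0. The cause of these shifts was not tested. In the fits with other cell types, only the 6 hyperoxic P14 mice were left out in turn, and the restriction to cells with Plet1 was not run. Depth limits the genes at a few UMIs per mouse, which did not pass the filter.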
